A study of Betula luminifera with 4 samples.

Results

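The miRNAs described here are miR399 and miR2111, the families best known from plants short of phosphate, as sequenced in the birch Betula luminifera. Members were all rows of the deposited miRNA table whose name starts with miR399, miR2111 or miR827, each distinct mature sequence taken once. This gave 6 of the table's 215 distinct sequences, 4 named miR399a to miR399d and 2 named miR2111a and miR2111b, while miR827 was not analysed here. The rule used names alone and no measured value, though the members were chosen with earlier results of these data known.

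All libraries came from plants of a single clone, G49, raised in tissue culture, moved to sand, watered first with medium holding phosphate and then with deionized water to use up stored phosphate. The control plants (CK) then received medium with 1.25 mM KH2PO4, and the phosphate-deficient plants (LP) the same medium with 0 mM KH2PO4 and potassium made up with K2SO4. Roots gave the libraries root CK and root LP, and stems and leaves, their RNA mixed in equal parts, gave shoot CK and shoot LP, with 1 library for each of the 4 groups. The table's reads over distinct sequences summed in roots to 308667 under CK and 101816 under LP and in shoots to 1015833 and 723599, so root LP had the fewest reads behind its values. The table holds miRNAs only, and the tissue labels were not checked against marker genes.

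In Arabidopsis, miR399 is made when phosphate runs low, travels in the phloem from shoot to root and directs cleavage of the mRNA of PHO2, a ubiquitin-conjugating enzyme that promotes the breakdown of phosphate transporters. Several loci encode nearly identical miR399 sequences, all cut from the 3' arm of their hairpins. miR2111 is also made under phosphate starvation in Arabidopsis, mainly from the 5' arm, and targets mRNAs of F-box proteins. In the legume Lotus japonicus it moves from shoot to root and acts on an F-box gene that restrains nodulation.

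The mature sequences are shown because the results turn on how the members differ, miR399c from miR399a only in lacking its last bases. They are written 5' to 3' with T for U, and capitals mark bases 2 to 8, the seed.
miR399a: tGCCAAAGgagaattgccctg
miR399b: cGCCAAAGgagagttgccctt
miR399c: tGCCAAAGgagaattgccc
miR399d: cTGCCAAGggagatttgctca
miR2111a: tAATCTGCatcctgaggttta
miR2111b: gTCCTTGGgaggcagattatc

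miR399a, miR399b and miR399c share the seed GCCAAAG, which no other sequence of the table carried. miR399c, of 19 nt, is identical to miR399a, of 21 nt, over its whole length and lacks only the last bases of miR399a. miR399b, also of 21 nt, differs from miR399a by T1C, A13G and G21T, with positions counted from the 5' end of miR399a and its base given first. It therefore starts with C, whereas miR399a and miR399c start with T, the 5' base of most plant miRNAs. miR399d starts 1 base further upstream, and its seed was not shared by any other listed sequence. Laid on its closest database entry, castor bean rco-miR399f, it is shifted by 1 base, matches 19 of the 20 overlapping bases and differs by A7G.

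The table took miR399a, miR399b and miR2111a as exact copies of database miRNAs of grapevine, peach and melon. Of the 6 members, only miR399c was placed on a birch transcript, TRINITY_DN28842_c1_g1, positions 635 to 722 of the minus strand in the authors' assembly. That precursor is shown because its bases are not those of the miRNA read from it, with capitals for the stretch the table assigns to miR399c.
miR399c precursor: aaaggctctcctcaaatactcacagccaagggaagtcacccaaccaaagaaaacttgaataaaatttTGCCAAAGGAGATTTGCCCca

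The stretch in capitals, bases 68 to 86 of the 88, matches 18 of the 19 bases of miR399c and differs by A13T, with the base of miR399c first. It matches poplar ptc-miR399b, the database entry the table names for this row, at all 19 bases. The deposited fold paired 30 of the 88 precursor bases and 9 of the 19 in that stretch. Its folding energy index, MFEI, a measure of how firmly a precursor folds for its length and GC content, was 0.4 as deposited, against a median of 0.9 over the 108 distinct precursors of the table, of which 6 were lower and 10, miR399c included, stood at 0.4. None of the 6 member sequences occurred without mismatch in any deposited precursor, so no birch locus is given here for any of them.

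The members of miR2111 come from opposite arms. Set against each other with 3' overhangs of 2 bases, miR2111a, from the 5' arm, and miR2111b, from the 3' arm, formed 14 Watson-Crick and 3 G:U pairs over 19 positions. The soybean 3' arm sequence gma-miR2111a, the closest entry to miR2111b, formed 15 Watson-Crick and 3 G:U pairs with miR2111a. It differs from miR2111b by T11G, C20T and G21C, with the soybean base first and positions counted from its 5' end.

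The abundances of the families differed widely. miR399 ranked between 20 and 21 of 56 families in each library, at normalized values, the authors' scaled reads, of 610.3 (CK) and 629 (LP) in roots and 971 (CK) and 727 (LP) in shoots. miR2111 ranked between 38 and 44, at 6.13 (CK) and 27.3 (LP) in roots and 6.20 (CK) and 9.36 (LP) in shoots. As a share of the table's reads, miR399 held 0.194% under CK and 0.226% under LP in roots, and 0.185% and 0.129% in shoots, so the library with the highest share was root LP and the one with the highest normalized value was shoot CK. In bulk tissue, fewer cells making an RNA and less of it per cell cannot be told apart.

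miR399b was the main form in every library. In roots it had 540.7 reads under CK and 168.7 under LP, in shoots 1562.5 and 713, which gave normalized values of 552 and 460.4 in roots and 807 and 557 in shoots. miR399a stood in roots at 30.3 under CK and 41.4 under LP, from 29.7 and 15.2 reads, and in shoots at 157 and 166, from 303.5 and 213 reads. The short miR399c had the reverse order of tissues, with 27 reads under CK and 46.5 under LP in roots against 10 and 5.5 in shoots, or normalized values of 27.6 and 127 against 5.17 and 4.29. Fractions of a read were taken as shared reads that the authors had split, an assumption that was not tested. The division of reads between these near-identical forms is therefore uncertain. The family sum also held fractions, at 597.3 reads in root CK, 230.3 in root LP and 931.7 in shoot LP. If the fractions come from splitting, the sum is not free of it. miR399d had 3 reads, all in shoot CK.

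**Figure D1:**
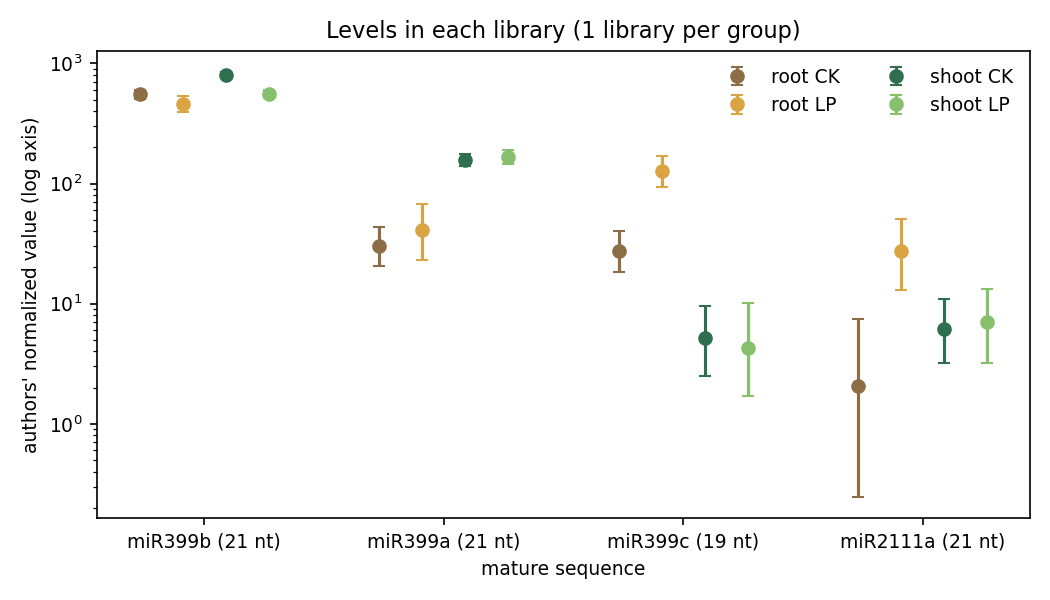
Authors' normalized values (log axis) of miR399b, miR399a, miR399c and miR2111a in the 4 libraries, with bars for the exact 95% Poisson interval of the reads behind each point. miR399a was higher in both shoot libraries, at 157 and 166, and miR399c in both root libraries, at 27.6 and 127.

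In roots, LP against CK gave similar miR399 totals and a different makeup. The family had a log2 ratio, taken after adding 1, of 0.04, which turned to -0.01 under TMM scaling and -0.07 under median-of-ratios scaling. Within it miR399c was 4.60-fold higher under LP, with an exact 95% interval of 2.84 to 7.76, and miR399b 1.20-fold lower (1.006 to 1.43). The 1.37-fold ratio of miR399a had an interval of 0.668 to 2.56, which includes equality. These intervals cover counting error of the reads only, since no group has a replicate, and they compare libraries, not conditions.

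The share of miR399c in the family's root reads was 4.52% under CK (exact binomial interval 3.001% to 6.51%) and 20.2% under LP (15.4% to 26.2%). That of miR399b was 90.5% under CK (87.99% to 92.8%) and 73.2% under LP (67.3% to 79.1%). These shares do not depend on how libraries are scaled. With miR399a and miR399c summed, a quantity chosen after its values were seen because both share 19 bases, the level was 57.9 under CK and 168 under LP, 2.91-fold higher (1.995 to 4.24).

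**Figure D2:**
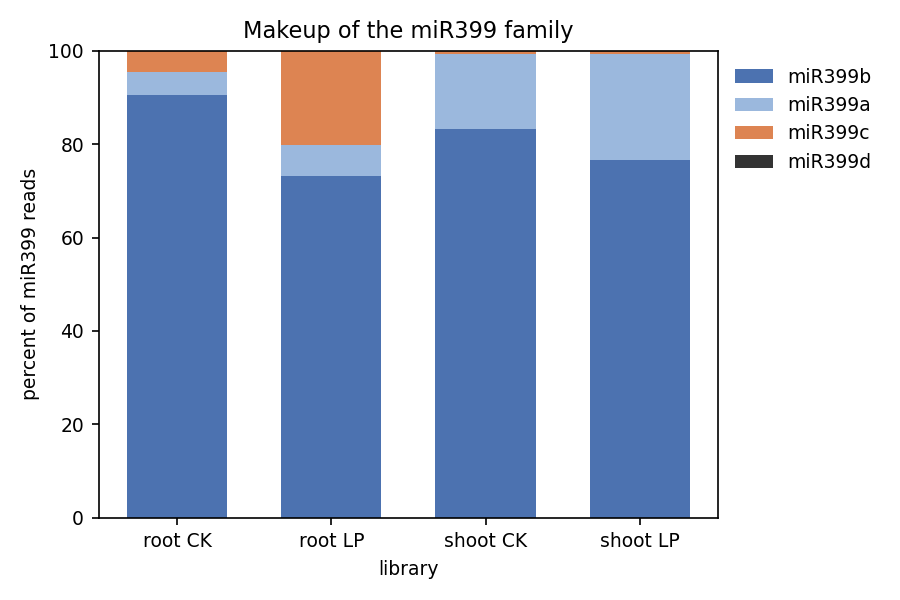
Percent of miR399 reads (y axis) held by each member in the 4 libraries (x axis). miR399c made up 4.52% in root CK and 20.2% in root LP, but under 1% in both shoot libraries, where miR399a held 16.2% and 22.8%.

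miR2111 was 4.45-fold higher under LP than under CK in roots (1.47 to 14.9), on 10 and 6 reads. The 5' arm sequence miR2111a accounted for all 10 reads of root LP and 2 of the 6 in root CK, and was 13.4-fold higher (2.85 to 125). The other 4 reads in root CK were of the 3' arm sequence miR2111b, which had 0 reads in root LP. That 0 may hide reads, since only 5 of the table's 705 values above 0 are exactly 1 read. Whether the arms differ between these libraries was not tested. Of the 6 members, 4 reached a normalized value of 10 in a root library, and 2 of these, miR399c and miR2111a, were at least 2-fold higher under LP and 0 at least 2-fold lower. Over all 143 sequences that reached that value, 24.5% were at least 2-fold higher and 18.2% lower. miR2111a reached the value of 10 only in root LP, where it was higher, so the count of members describes them and is not set against this background.

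In shoots, no member that reached a value of 10 was at least 2-fold apart between LP and CK. The miR399 family was 1.34-fold lower under LP (1.23 to 1.45), a log2 ratio of -0.42 that came to -0.02 under TMM scaling. miR399b was 1.45-fold lower (1.33 to 1.59), and its log2 ratio moved from -0.54 to -0.14 under TMM scaling. The 1.06-fold ratio of miR399a (0.884 to 1.26) and the 1.20-fold lower value of miR399c (0.363 to 3.70) had intervals that include equality, and each turned direction on the log2 scale, miR399a to -0.02 with scaling to the table total and miR399c to 0.10 under TMM scaling. In shoots miR399a made up 16.2% of the family under CK (14.5% to 17.9%) and 22.8% under LP (20.2% to 25.7%). So in both tissues miR399b held a smaller share under LP, the difference being taken up by miR399c in roots and by miR399a in shoots.

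miR2111 had 12 reads in each shoot library, all of them miR2111a in shoot CK, and 9 of miR2111a with 3 of miR2111b in shoot LP. Its ratio of 1.51-fold (0.620 to 3.67) was not distinguishable from equality at this depth. Of the 6 members, 2 reached a value of 10 in a shoot library, against a background in which 17.9% of 140 sequences were at least 2-fold higher under LP and 27.9% lower. That background split of 25 higher and 39 lower became 48 and 23 under TMM scaling.

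**Figure D3:**
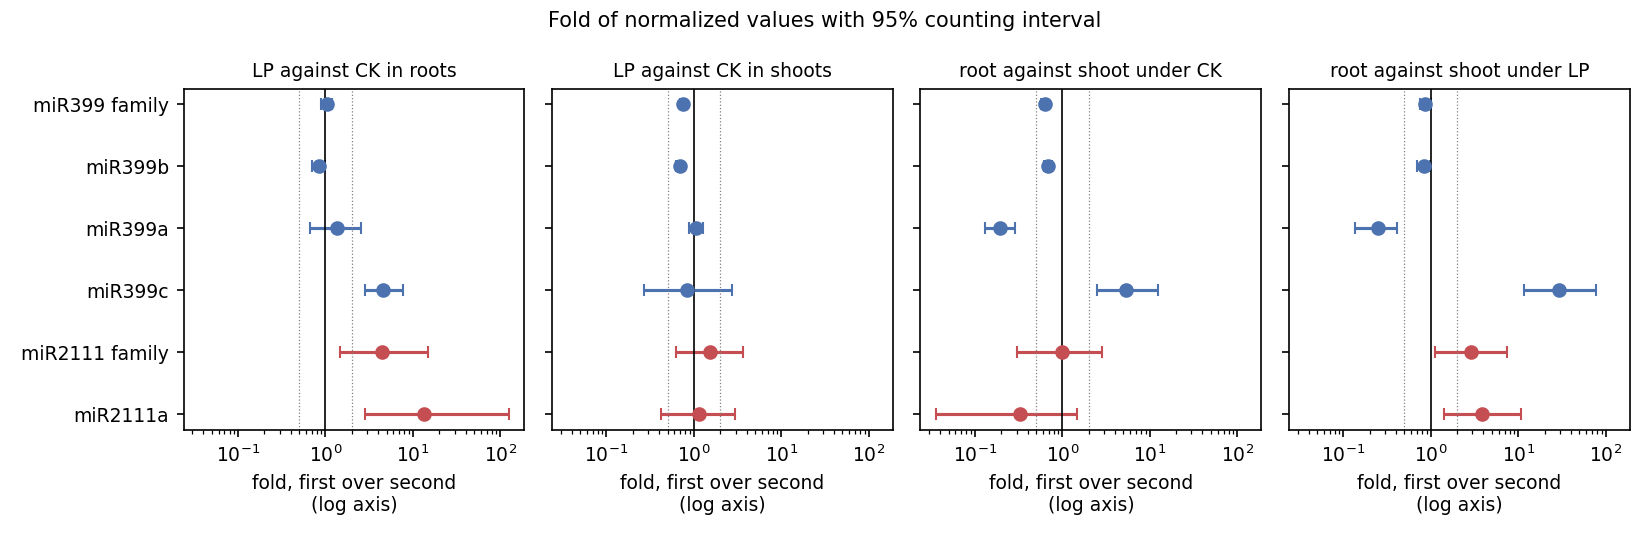
Fold of normalized values (x axis, log scale) for the miR399 and miR2111 families and their main members in each of the 4 comparisons, with exact 95% counting intervals. Dotted lines mark 2-fold. In roots miR399c lies at 4.60 and the miR2111 family at 4.45, while the miR399 family lies at 1.03.

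Between tissues, the long and short forms of the same miR399 sequence went opposite ways. Under CK, miR399a was 5.17-fold lower in roots than in shoots (3.52 to 7.73) and miR399c 5.34-fold higher (2.50 to 12.4). Under LP, miR399a was 4.01-fold lower in roots (2.41 to 7.38) and miR399c 29.6-fold higher (11.7 to 78.4). Scaling to the table total shifted root against shoot ratios by 0.73 under CK and 1.02 under LP on the log2 scale. It left the directions of miR399a and miR399c as they were, but brought miR399a under LP to a log2 ratio of -0.97, just under 2-fold.

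The sum of both forms stood at 57.9 in root CK and 162 in shoot CK, and at 168 in root LP and 170.3 in shoot LP. Its root against shoot ratio was thus 2.80-fold lower under CK (2.10 to 3.76) and 1.01-fold lower under LP (0.755 to 1.36), an interval that includes equality. Scaling to the table total took the log2 ratio of this sum from -1.47 to -0.74 under CK and from -0.02 to 1.00 under LP. The miR399 family was 1.59-fold lower in roots under CK (1.45 to 1.75) and 1.16-fold lower under LP (1.001 to 1.34). Scaling to the table total turned both, to log2 ratios of 0.07 and 0.81, so the direction of the family between tissues depends on the scaling. miR399b, 1.46-fold lower in roots under CK (1.32 to 1.61) and 1.21-fold lower under LP (1.02 to 1.43), also turned with that scaling, to 0.19 and 0.75.

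For miR2111a, root CK had the lowest value, 2.04, and root LP the highest, 27.3, with shoot CK and shoot LP between them at 6.20 and 7.02. Under LP, miR2111a was 3.89-fold higher in roots than in shoots (1.42 to 10.8). Under CK it was 3.03-fold lower, with an interval of 0.675 to 27.9 that includes equality. The neighbouring values of shoot CK and shoot LP differed by 1.13-fold (0.421 to 2.93), within counting error.

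Of the 6 members, 3 reached a value of 10 in a CK library, with 1 at least 2-fold higher in roots and 1 lower. In the background, 26.1% of 142 sequences were higher in roots and 38.0% lower. Under LP, 4 members reached it, with 2 higher in roots and 1 lower, beside 34.8% and 38.0% of 158 sequences. miR399c under CK, and miR399c and miR2111a under LP, reached the value of 10 only in the root library, where they were higher, so these counts too are a description. With scaling to the table total, the background split of 37 higher and 54 lower under CK became 56 and 37, and that of 55 and 60 under LP became 84 and 37.

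The reads of miR399c per read of miR399a give the same contrast within each library. Roots had 0.910 under CK (0.515 to 1.57) and 3.07 under LP (1.72 to 6.03). Shoots had 0.0329 under CK (0.0156 to 0.0613) and 0.0258 under LP (0.0102 to 0.0623). This short-to-long ratio was 27.6 times higher in root CK than in shoot CK (11.3 to 68.6) and 119 times higher in root LP than in shoot LP (38.1 to 356). Between LP and CK it was 3.37 times higher in roots (1.49 to 8.22), and the 0.784-fold ratio in shoots (0.252 to 2.65) included equality.

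The same ratio was taken for the other pairs of listed sequences in which the shorter is the exact 5' start of the longer. The table holds 7 such pairs, that of miR399 included, and a pair was used in a comparison where each form had at least 10 reads over both libraries and none was at 0. In roots, LP against CK gave a higher short-to-long ratio in 3 of the 4 other pairs, with values from 0.852 to 7.36 and a median of 2.63. The interval of 1 of those 3, miR172b/c with miR172f, included equality. The value of 3.37 for miR399 lay within that range, with 2 pairs above it, miR169b with miR169c and miR7122b with miR7122a. In shoots the ratio was lower under LP in all 6 other pairs, from 0.220 to 0.685, though 2 of the pairs share the short form miR319a and the intervals of 2 pairs included equality. Whether the higher value of miR399c in root LP shares a source with the short forms of other miRNAs was not tested.

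Between tissues, the pair miR399c and miR399a lay beyond the other pairs. Under CK the 4 others had short-to-long ratios 1.06 to 3.03 times higher in roots than in shoots, against 27.6 for miR399, and the intervals of 3 of these 4 included equality. Under LP the 3 others had values of 3.32 to 35.4, against 119 for miR399. Its interval of 38.1 to 356 under LP overlaps that of miR7122b with miR7122a, 23.4 to 54.2. It also overlaps, narrowly, that of miR169b with miR169c, 7.27 to 38.8.

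**Figure D4:**
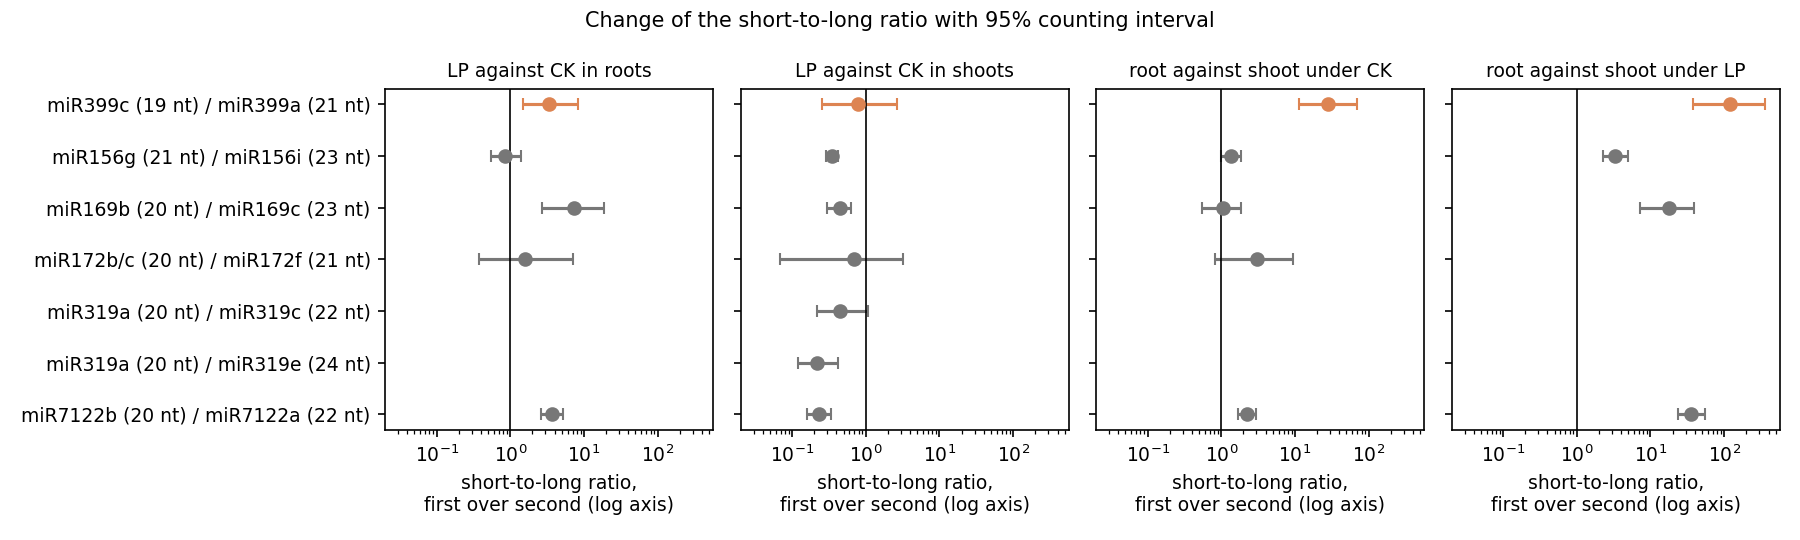
Short-to-long read ratio in the group named first over that in the group named second (x axis, log scale, exact 95% counting intervals) for each pair of sequences in which the shorter is the 5' start of the longer, with miR399 in orange. In roots LP against CK, miR399 at 3.37 lies among the other pairs, and in root against shoot it lies above them, at 27.6 and 119.

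Other families that phosphate starvation is known to change in Arabidopsis were set beside these. Of the 6 on that list, 4 had values, and miR778 and miR827 were not analysed here. miR156, which is known to rise there and targets SPL genes, had log2 ratios of 0.07 in roots and 0.84 in shoots, the former turning to -0.04 under median-of-ratios scaling. The families known to fall there went no single way in birch. miR169, which targets NF-Y subunits, had ratios of 0.06 in roots, turning to -0.05 under median-of-ratios scaling, and -0.86 in shoots. miR395, which targets ATP sulfurylases, had 1.72 in roots and -1.38 in shoots. Its normalized values in roots were low, 18.4 (CK) and 62.8 (LP), a fold of 3.41 (1.76 to 6.71). In shoots they were 120 (CK) and 45.6 (LP). miR398, which targets copper/zinc superoxide dismutases, had log2 ratios of 1.41 in roots and 1.00 in shoots. Whether the lack of phosphate or the K2SO4 of the LP medium lay behind the ratios of these families was not tested.

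By pattern over the 4 libraries, the families nearest to miR399 among 34 others with a value of at least 100 were miR6478, miR171 and miR166. Their distances, between log2 patterns each centred on its own mean, were 0.31, 0.32 and 0.51. miR171, which targets GRAS genes, had log2 ratios of -0.31 in roots and -0.47 in shoots. In roots miR6478 had -0.32 and miR166 -0.50, all below the 0.04 of miR399. In shoots miR6478 had -0.17 and miR166 -0.64, against -0.42 for miR399. The nearest to miR2111 among 47 families with a value of at least 10 were miR3627, miR393 and miR479, at larger distances of 1.41, 1.43 and 1.47. None of these had a root LP ratio near that of miR2111, at log2 ratios of 0.20, 0.11 and 0.68 against 1.99.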

How the data were processed

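Small RNA libraries were sequenced as 36-nt single reads, per the labels' protocols. Raw columns hold estimated counts deposited by the authors, whose fractions were taken as shared reads that had been split. Normalized columns hold a signal, in which the authors scaled each library by its own constant, in roots 1.02 (CK) and 2.73 (LP), in shoots 0.517 and 0.780. No aligner, counter, database release or basis of the constants was given in the sources used here. GC percent, folding energy and MFEI (a ratio) of precursors are as deposited by the authors.

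The 221 rows were collapsed to 215 distinct sequences, and no member row was repeated. A family is the sum of its distinct sequences. Folds are ratios of normalized values, with exact conditional (Clopper-Pearson) 95% intervals from reads rounded to whole numbers, with 0.5 taken upward. Short-to-long ratios have exact conditional intervals, as do odds ratios of 2 libraries. PCR copies are not independent molecules, so intervals cover counting error only. Since each group is 1 library, nothing was tested for significance. A call is a plain fold of at least 2 with a normalized value reaching 10 in either library of the comparison. Only 5 of 705 values above 0 are exactly 1 read, so values of 0 may hide reads and get no upper limit. All members are named, with the other list families and the 3 nearest families by pattern. Other scalings were the table total, TMM (edgeR 4.0.16) and median of ratios, and intervals were computed with scipy 1.17.1 after a check on simulated data. The members, lists and tests were chosen with earlier results of these data known, and the short-to-long pairs after the values were seen.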

Additional observations from a re-analysis of the deposited data

Results flagged for a closer look

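The miR399 and miR2111 families and the members with reads in every library were compared here. Of their results, 4 had ratios of opposite sign in the groups set side by side. In each case the difference between the groups was not tested, since every group has 1 library. The log2 ratio of miR399c under LP was 2.16 in roots and -0.22 in shoots, the latter from 5.5 and 10 reads with an interval that includes equality. The miR399 family had 0.043 in roots, with a fold interval of 0.880 to 1.20 that includes equality, and -0.42 in shoots. Its root value turned to -0.006 under TMM and -0.067 under median of ratios, the same sign as in shoots. For root against shoot, miR2111a had -1.24 under CK, from 2 and 12 reads, and 1.82 under LP, from 10 and 9 reads. The miR2111 family had -0.014 under CK, which turned to between 0.084 and 0.62 under the 3 other scalings, and 1.45 under LP. Results outside this set had opposite signs too, among them LP against CK for miR395, at 1.72 in roots and -1.38 in shoots. Both fold intervals of miR395, 1.76 to 6.71 and 0.282 to 0.511, exclude equality. For miR2111b, LP against CK gave -2.35 in roots and 1.74 in shoots, each with a library at 0 reads. Root against shoot, miR2111b had 2.35 under CK and -1.74 under LP, again with a library at 0 reads.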

How the results depend on the processing

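Depth limits the low members: miR2111 rests on at most 12 reads in any library, and miR399c on 10 and 5.5 in the shoot libraries. No paired analysis was possible because each group has 1 library. The miR2111 ratios stayed within their counting intervals under all 8 alternatives, though the ratio of LP to CK in roots, 1.99, ranged from 1.21 with a pseudocount of 10 to 3.22 with the main arm only. That of root to shoot under LP, 1.45, ranged from 0.95 with a pseudocount of 10 to 2.40 with the table total. The 0.95 lies under 2-fold only after 10 is added to both values, and the plain fold used for calls was 2.92. For miR399 in roots, the log2 ratio was -0.22 with sequences of 20 to 22 nt only and -0.26 with the most abundant sequence alone. In shoots it was -0.024 under TMM, -0.25 under median of ratios and -0.54 with the most abundant sequence alone. Root against shoot under CK it was 0.065 with the table total and -0.34 under median of ratios. Under LP it was 0.81 with the table total, -0.54 under TMM and -0.53 with 20 to 22 nt only. For miR399, the setting of 20 to 22 nt leaves out miR399c, of 19 nt, and the most abundant sequence is miR399b. Each other scaling multiplies all folds of a comparison by the same factor. Which scaling is nearest to the true levels was not tested.

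Counts of sequences at least 2-fold apart moved by over 1.5 times as follows. With no filter on low values, 61 were lower in root LP in place of 26, 42 higher and 62 lower in shoot LP in place of 25 and 39, and 82 and 92 lower in roots than in shoots under CK and LP in place of 54 and 60. TMM gave 48 higher and 23 lower in shoot LP. The table total gave 56 higher in roots under CK in place of 37, and under LP 84 higher and 37 lower in place of 55 and 60. Of 132 values for single sequences, list families and shares, 22 moved by more than their counting interval and 110 did not.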
